A study of Arabidopsis thaliana with 4 samples.

Results

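The protein kinases examined here phosphorylate PIN proteins, the plasma membrane carriers that export auxin from plant cells. They were chosen by locus code and comprise PID (PINOID, AT2G34650), WAG1 (AT1G53700), WAG2 (AT3G14370), PID2 (AT2G26700), D6PK (AT5G55910), D6PKL1 (AT4G26610) and D6PKL2 (AT5G47750), 7 of the 23922 loci in the count table. Transcripts were measured by RNA-seq in Arabidopsis thaliana callus, the mass of dividing cells that forms from explants on callus induction medium. Seedlings were kept in darkness for 9 days, and hypocotyl pieces of about 1 cm were then cultured at 22 °C in continuous light for 5 to 6 days on medium with 2% sucrose, 11 µM of the synthetic auxin 2,4-D and 0.2 µM of the cytokinin kinetin. The groups were wild type (accession Col-0; 2 libraries) and the plt1 plt2 double mutant (2 libraries), which is disrupted in PLT1 and PLT2, transcription factor genes of the root stem cell niche. Both were harvested at the stage labelled 6 days, and about 100 calli were pooled for each RNA sample. The labels give neither the mutant alleles nor separate cultures for the libraries of a group, so the spread behind the p-values may be only technical.

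PID, WAG1, WAG2 and PID2 form 1 branch of the plant AGC VIII kinases, and D6PK with its relatives forms another. Both branches phosphorylate the central hydrophilic loop of PIN proteins, which activates auxin export. PID, WAG1 and WAG2 are also known to direct PIN proteins to a particular side of the cell, whereas D6PK activates PIN proteins with little effect on their position. Loss of PID gives pin-shaped inflorescences without flowers, and D6PK and its relatives are known for their part in lateral root formation and in phototropic bending of the hypocotyl.

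A hallmark of AGC VIII kinases is an aspartate in place of the glycine of the metal-binding motif found in most protein kinases. The coding stretch of 42 bases around that motif is shown for every one of the 7 genes, since it shows both what they share and how far their DNA has diverged. It was read from the TAIR10.1 genome with the RefSeq annotation, 5′ to 3′ on the coding strand, and the 9 capitals are the codons for aspartate, phenylalanine and aspartate.
PID: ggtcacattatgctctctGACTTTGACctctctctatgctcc
WAG1: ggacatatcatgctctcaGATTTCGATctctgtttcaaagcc
WAG2: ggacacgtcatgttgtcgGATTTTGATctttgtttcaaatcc
PID2: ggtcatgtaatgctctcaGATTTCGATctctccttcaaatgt
D6PK: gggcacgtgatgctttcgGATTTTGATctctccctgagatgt
D6PKL1: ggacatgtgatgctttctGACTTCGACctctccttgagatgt
D6PKL2: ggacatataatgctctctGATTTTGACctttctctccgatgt
The stretches lie at chr2:14590561-14590602 (minus strand) for PID, chr1:20049294-20049335 (plus strand) for WAG1, chr3:4798755-4798796 (minus strand) for WAG2, chr2:11369834-11369875 (plus strand) for PID2, chr5:22640775-22640816 (minus strand) for D6PK, chr4:13426445-13426486 (plus strand) for D6PKL1 and chr5:19340685-19340726 (minus strand) for D6PKL2. All 7 genes carried the 3 codons, in 5 different spellings. Over aligned coding bases the closest pairs were D6PK and D6PKL1 with 83.2% identity and WAG1 and WAG2 with 78.1%, while PID was at most 60.3% identical to any other gene of the 7. The longest run of identical bases in any pair of coding sequences was 35, and 0% of the 50-base stretches in the exons of the 7 genes occurred elsewhere in the genome. D6PK and D6PKL1 each overlap a gene on the other strand, and D6PKL2 overlaps a gene on each strand. Counts of these 3 genes are therefore uncertain, since whether counting used strand is not stated. For D6PKL2 the overlap on its own strand leaves counts uncertain even if strand was used. No annotated gene overlaps PID, WAG1, WAG2 or PID2.

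The libraries held 53907649 to 63209401 counted reads. The callus markers WOX5, LBD16, LBD18, LBD29 and SCR were all detected, with 7.32 CPM (counts scaled to a common library size with TMM factors) or more in every library. PLT1 had 171 and 166 CPM under the wild type label and 122 and 128 CPM under the mutant label. PLT2 had 3687 and 3533 reads (63.05 and 62.14 CPM) under the wild type label and 11518 and 9800 reads (181.6 and 179.5 CPM) under the mutant label. Relative to the wild type label, the level under the mutant label was 0.742-fold for PLT1 and 2.88-fold for PLT2. The higher PLT2 count goes against a simple reading of the label, and PLT1 kept most of its level. A count per gene holds no position of its reads. Groups are therefore named by their labels (wild type, and mutant for plt1 plt2), and every direction rests on those labels.

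Of the 7 kinase genes, 2 were lower under the mutant label, PID2 and WAG1, and 0 were higher, with a Benjamini-Hochberg adjusted p below 0.05 in the edgeR quasi-likelihood test across all 19325 genes tested. At an unadjusted edgeR p below 0.05, 3 were lower and 1 (PID) was higher, beside 13.2% lower and 11.4% higher of all genes tested. DESeq2 called 1 lower and 0 higher, beside 4.58% lower and 3.32% higher of the 20211 genes to which it gave an adjusted p. All 7 passed the filter on low counts. Across all genes tested, 10.5% were called, 5.86% lower and 4.63% higher. The median log2 fold change of the 7 (mutant label minus wild type) was -0.0349, beside -0.000533 over all genes tested. The calls fell in the PID branch, and the 3 genes of the D6PK branch were not called; the plot of reads by library shows each gene.

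**Figure D1:**
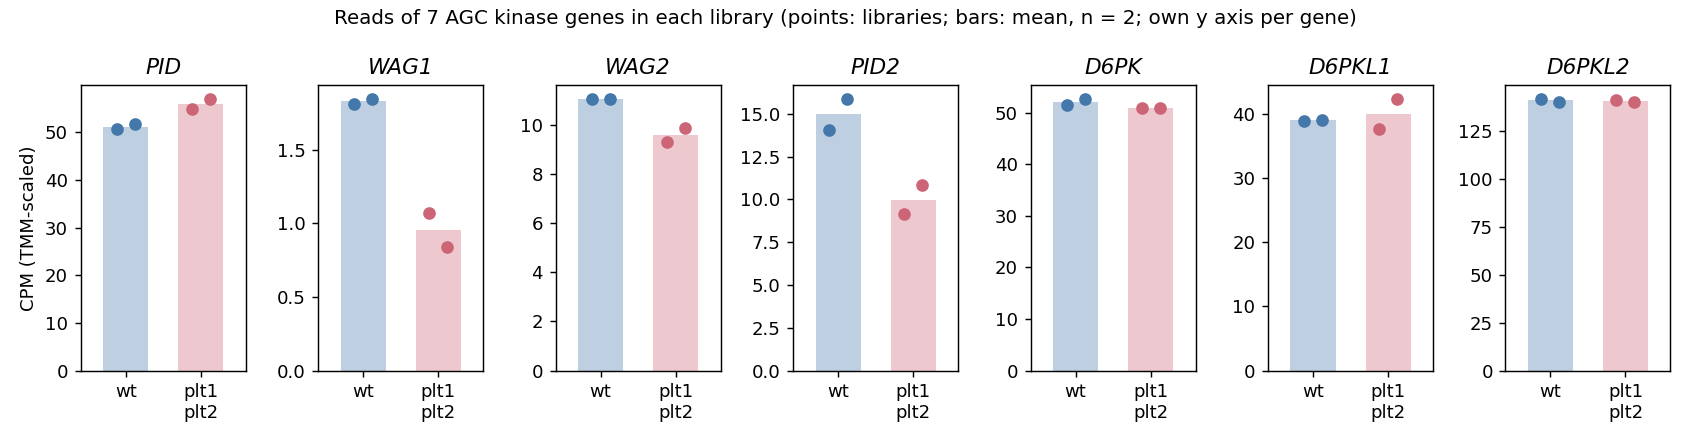
CPM (reads scaled to library size) of each of the 7 kinase genes in the 4 libraries; points are libraries, bars are group means (n = 2), and each gene has its own axis starting at 0. The libraries of the 2 labels are apart for WAG1 and PID2, which were called, and for PID, WAG2 and D6PK, which were not. Those of D6PKL1 and D6PKL2 overlap. Of all genes tested, 54.7% were apart.

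PID2, the kinase gene named for its likeness to PINOID, had 14.1 and 15.9 CPM under the wild type label and 9.18 and 10.8 CPM under the mutant label. Both libraries labelled plt1 plt2 lay below both labelled wild type, though the labels were apart for 54.7% of all genes tested. The log2 fold change was -0.59 ± 0.10 (SE, n = 2 per group; edgeR adjusted p = 0.00386), and the level fell by 33.4%, with a 95% interval of -0.81 to -0.37 on the log2 scale. The call held in 9 of 9 alternatives, including each library left out in turn, with log2 fold changes of -0.71 to -0.47 and an edgeR or DESeq2 adjusted p of at most 0.0424.

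WAG1, whose product acts redundantly with that of WAG2 to restrain root waving, was the least abundant of the 7. It had 106 and 105 reads under the wild type label and 68 and 46 under the mutant label, or 1.81 and 1.85 against 1.07 and 0.842 CPM. The groups did not overlap, as was so for 54.7% of all genes tested. The log2 fold change was -0.93 ± 0.23 (SE, n = 2 per group; edgeR adjusted p = 0.0283), 1.90-fold lower with a 95% interval of 1.33 to 2.71. The call held in 5 of 9 alternatives and was lost when library wild type 1 (edgeR adjusted p = 0.123), wild type 2 (0.148) or mutant 2 (0.0697) was left out and with DESeq2 (0.0844), while the log2 fold change stayed between -1.12 and -0.77.

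**Figure D2:**
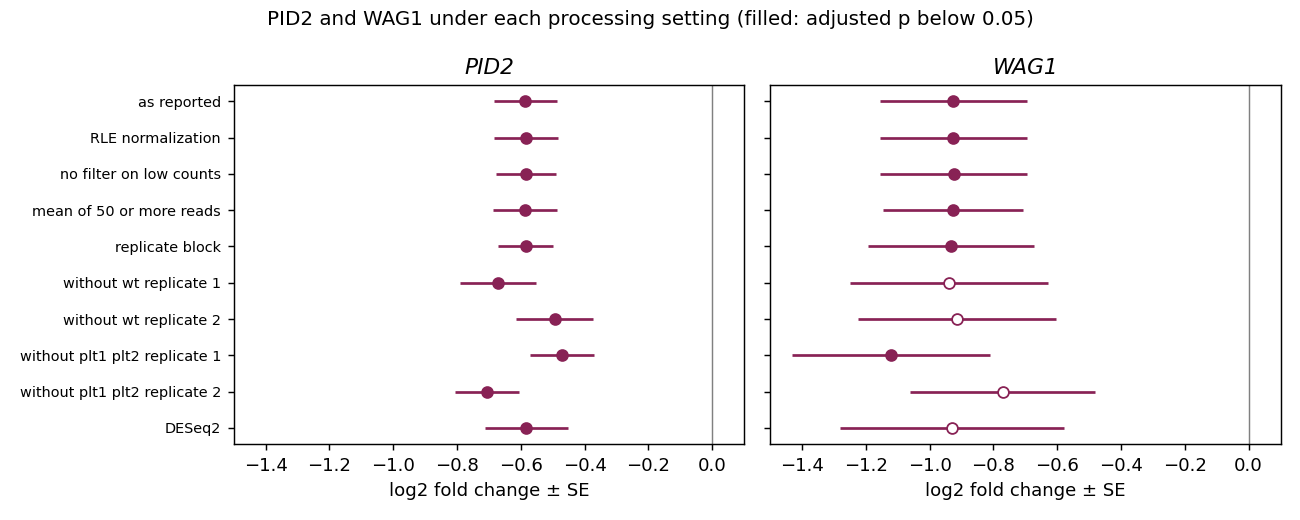
Log2 fold changes (mutant label minus wild type; bars are ± SE) of PID2 and WAG1 as reported and in 9 alternatives, with filled points for an adjusted p below 0.05. PID2 stays filled from -0.71 to -0.47, whereas WAG1 keeps its direction but is open in 4 of the 9.

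WAG2, the close relative of WAG1, had 11.1 CPM in both libraries labelled wild type and 9.30 and 9.87 CPM under the mutant label. The groups were apart, as they were for 54.7% of all genes tested and for 5 of the 7 kinase genes. WAG2 was not called (log2 fold change -0.21, 95% interval -0.40 to -0.02; edgeR adjusted p = 0.152). PID, the founding gene of the branch, had 50.6 and 51.7 CPM under the wild type label and 54.9 and 57.1 CPM under the mutant label. Its groups were also apart, in the other direction, and it was not called either (0.13, interval 0.02 to 0.23; edgeR adjusted p = 0.119). Neither gene was called in any of the 9 alternatives, where the adjusted p was 0.129 or more for WAG2 and 0.101 or more for PID.

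Levels were compared between genes per length, as RPKM, the CPM divided by the exon length in kilobases. Within the PID branch, PID took 62.3% and 61.2% of the summed RPKM under the wild type label and 71.1% and 69.9% under the mutant label. PID2 took 19.2% and 20.9%, against 13.2% and 14.7%. The shares of PID and of PID2 were apart between the labels, and the ratio of PID2 to PID, which does not depend on library scaling, was 0.308 and 0.341 against 0.186 and 0.211. The ratio of WAG1 to WAG2 was 0.157 and 0.160 against 0.111 and 0.0819. The summed RPKM of WAG1, WAG2 and PID2 was 14.6 and 15.6 against 10.6 and 11.7. With PID added, the summed RPKM of the branch was 38.8 and 40.3 against 36.8 and 38.9, and the labels overlapped. Exact two-sided permutation tests of these quantities, 11 in the family counting the summed PIN level, cannot give a p below 0.333 with 2 libraries against 2, and every quantity that was apart gave 0.333 (0.523 after Benjamini-Hochberg adjustment).

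Of the D6PK branch, D6PKL2 and D6PK had nearly the same values in all 4 libraries, and D6PKL1 varied more. D6PKL2, the most abundant of the 7, had 142 and 140 CPM under the wild type label and 141 and 140 CPM under the mutant label. D6PK had 51.4 and 52.7 against 50.8 and 50.8 CPM. D6PKL1 had 38.9 and 39.1 against 37.6 and 42.4 CPM. The groups overlapped for D6PKL1 and D6PKL2, and those of D6PK were apart by less than 1 CPM. The 95% intervals of the log2 fold changes were -0.10 to 0.09 for D6PKL2, -0.14 to 0.07 for D6PK and -0.10 to 0.17 for D6PKL1. None was called (edgeR adjusted p = 0.943, 0.698 and 0.783; the smallest in 9 alternatives was 0.292, for D6PKL1). The summed RPKM of the 3 genes was 100.5 and 100.4 under the wild type label and 99.2 and 101 under the mutant label. D6PKL3 (AT3G27580) belongs to the same branch but is not among the 7. It had 258 and 268 against 285 and 285 CPM, with the labels apart. Its log2 fold change was 0.12, and it was not called (edgeR adjusted p = 0.121, unadjusted p = 0.0209).

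**Figure D3:**
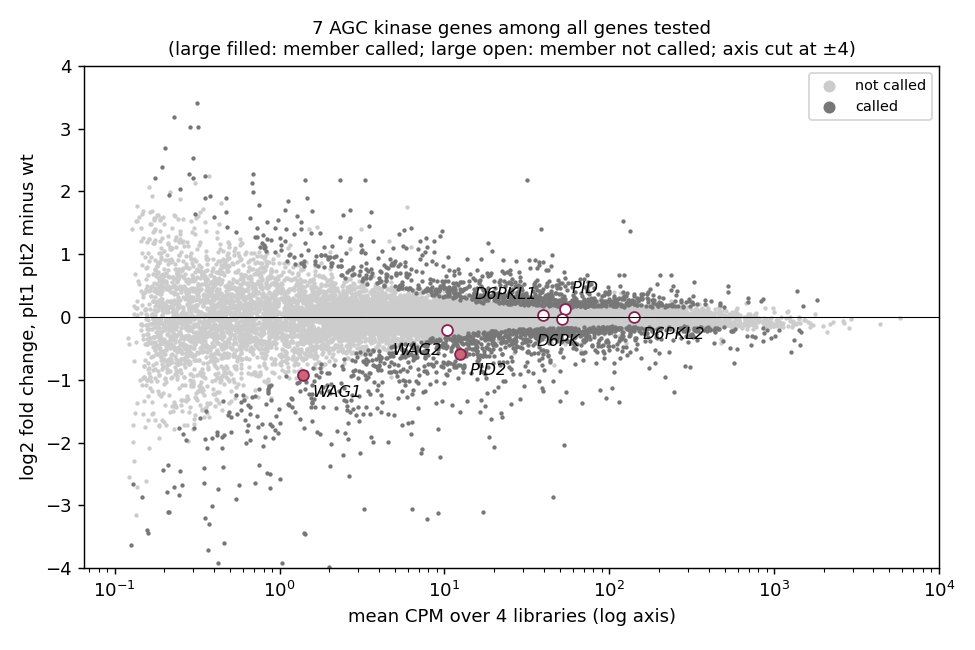
Log2 fold change (mutant label minus wild type) against mean CPM over 4 libraries (log axis) for all genes tested, with the 7 kinase genes as large points, filled where called. PID2 and WAG1 lie below 0 among called genes, and the 3 D6PK genes lie at 0 in the body of the plot.

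Among the 23 AGC VIII kinase genes listed, the 7 spanned a wide range of levels. By mean RPKM over the 4 libraries D6PKL2 ranked 2 (60.6 RPKM, behind D6PKL3 at 106.7), PID 3 (25.5), D6PK 6 (21.4), D6PKL1 9 (18.3), PID2 14 (6.61), WAG2 15 (5.79) and WAG1 19 (0.749). The ranks of D6PKL2, D6PK and D6PKL1 rest on counts that overlapping genes make uncertain. Of the 7, D6PKL2 and WAG1 were separated from both neighbours in this order in every library. PID, D6PK and D6PKL1 each overlapped an adjacent gene outside the 7, but not each other: PID ranged from 24.1 to 27.2 RPKM, D6PK from 21.2 to 21.96 and D6PKL1 from 17.4 to 19.6. PID2 and WAG2 overlapped over the 4 libraries. Under the wild type label PID2, at 7.44 and 8.41 RPKM, was above WAG2, at 6.21 in both libraries. Under the mutant label, where PID2 was lower, PID2 had 4.86 and 5.73 RPKM and WAG2 5.21 and 5.53, and the genes overlapped.

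**Figure D4:**
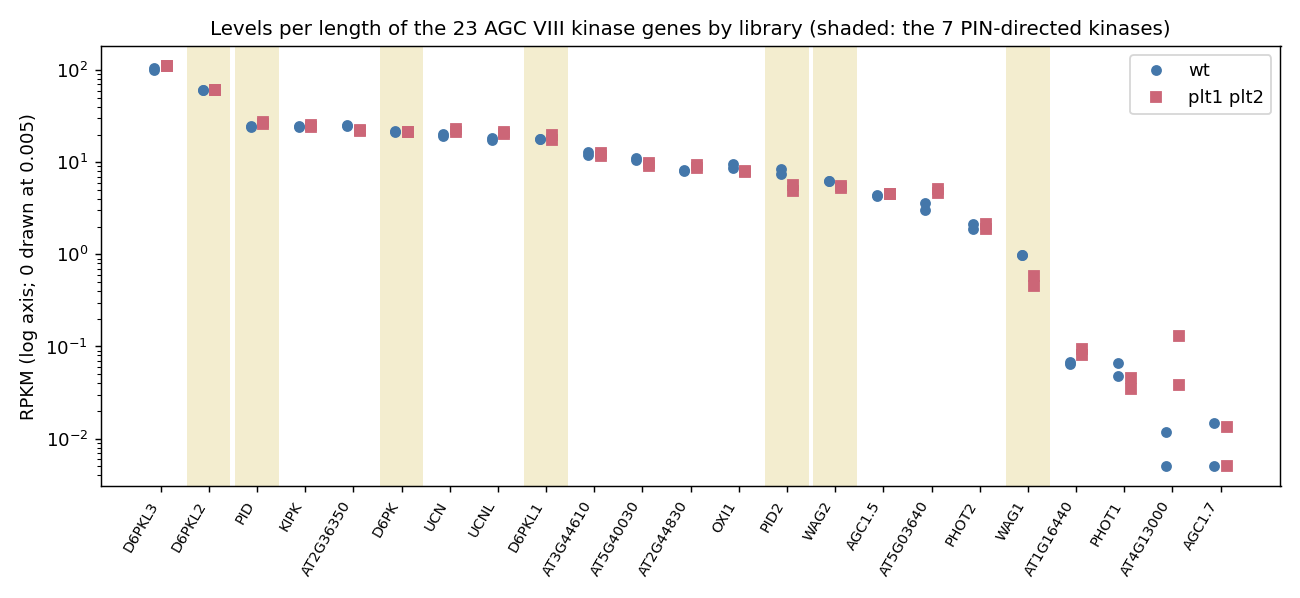
RPKM (log axis, with 0 drawn at 0.005) of the 23 AGC VIII kinase genes in each library, ordered by mean, circles for wild type and squares for plt1 plt2; shaded columns are the 7 kinases that act on PIN proteins. D6PKL2 and PID stand at ranks 2 and 3 and WAG1 at rank 19. Overlapping genes make the counts of D6PKL2, D6PK and D6PKL1 uncertain.

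The 250 bases upstream of the annotated starts of WAG1, WAG2 and PID2 are shown because both called genes are among them and because WAG1 and WAG2 share a stretch there. They are from TAIR10.1, 5′ to 3′ toward the gene, at chr1:20048184-20048433 (plus strand) for WAG1, chr3:4799613-4799862 (minus strand) for WAG2 and chr2:11368224-11368473 (plus strand) for PID2. The capitals mark CATGTG on either strand, an E-box form bound by basic helix-loop-helix factors, and in WAG1 and WAG2 also the bases that continue their longest shared run.
WAG1: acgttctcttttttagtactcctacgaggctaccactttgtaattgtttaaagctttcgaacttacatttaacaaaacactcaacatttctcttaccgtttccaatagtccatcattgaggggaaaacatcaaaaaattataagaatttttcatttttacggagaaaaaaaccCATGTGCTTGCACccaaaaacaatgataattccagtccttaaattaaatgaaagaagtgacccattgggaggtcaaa
WAG2: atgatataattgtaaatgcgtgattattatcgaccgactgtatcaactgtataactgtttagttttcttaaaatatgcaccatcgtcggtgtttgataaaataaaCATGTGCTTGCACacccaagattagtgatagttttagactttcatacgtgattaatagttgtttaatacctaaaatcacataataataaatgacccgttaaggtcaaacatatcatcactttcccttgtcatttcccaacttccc
PID2: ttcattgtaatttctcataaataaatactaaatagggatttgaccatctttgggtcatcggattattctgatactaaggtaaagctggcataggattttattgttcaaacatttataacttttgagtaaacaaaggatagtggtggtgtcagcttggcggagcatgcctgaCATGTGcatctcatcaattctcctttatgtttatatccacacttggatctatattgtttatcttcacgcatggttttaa
The longest run shared by WAG1 and WAG2 was CATGTGCTTGCAC, 13 bases, against 7 to 11 bases for the other pairs of the 7 genes. CATGTG, a motif chosen after the sequences were seen, stood once in these windows of WAG1, WAG2 and PID2, at 77, 145 and 79 bases before the start, and not in those of PID, D6PK, D6PKL1 or D6PKL2. Of 27443 upstream windows of 250 bases, 11.1% held it. Over 1000 bases 37.7% of windows held it, and so did those of all the 7 genes other than PID. The auxin response elements TGTCTC (10.9% of windows) and TGTCGG (4.16%), searched on both strands, were in 0 of the 7 windows of 250 bases. Over 1000 bases TGTCGG was found upstream of WAG1 and WAG2 (14.6% of windows held it), and TGTCTC upstream of 0 of the 7 (39.6%). These matches describe letters in the sequence and show no binding.

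Other AGC VIII kinase genes went both ways. Of 16 listed, 13 were tested, 2 were called higher and 1 lower, beside 4.63% higher and 5.86% lower of all genes tested. At an unadjusted edgeR p below 0.05, 5 were higher and 3 lower, beside 11.4% higher and 13.2% lower of all genes tested. The median log2 fold change was 0.0216, and the labels were apart for 10 of the 13, beside 54.7% of all genes tested. AT5G03640 had 11.5 and 9.55 CPM under the wild type label and 14.8 and 16.3 CPM under the mutant label (log2 fold change 0.56 ± 0.10 SE; edgeR adjusted p = 0.00451), and its call held in 9 of 9 alternatives. AT2G36350 fell by 0.18 on the log2 scale (edgeR adjusted p = 0.0277), which was lost when wild type 1 (0.142), wild type 2 (0.0942) or mutant 2 (0.0793) was left out and with a replicate block (0.0511).

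UCN and UCNL, AGC kinase genes related to the 7, lie close to the disrupted genes. UCNL is 14001 bases from PLT1 on chromosome 3 with 0 annotated genes between them, and UCN is 22122 bases from PLT2 on chromosome 1 with 4 genes between. UCNL had 30.7 and 32.2 CPM under the wild type label and 37.6 and 35.7 CPM under the mutant label, 0.22 ± 0.05 (SE) higher on the log2 scale (edgeR adjusted p = 0.0282). That call held in 5 of 9 alternatives and was lost when wild type 1 (0.165), wild type 2 (0.0711) or mutant 1 (0.0843) was left out and with DESeq2 (0.0743). UCN had 32.2 and 31.0 against 33.7 and 37.1 CPM and passed the threshold (0.0170) only with mutant 1 left out (as reported 0.16 on the log2 scale, edgeR adjusted p = 0.122; 0.09 to 0.23 in the 9 alternatives). Distance to a disrupted gene cannot be told apart from other effects of the genotype here.

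The genes of the PIN family had 2 called higher and 1 lower of 6 tested, beside 4.63% higher and 5.86% lower of all genes tested. Their median log2 fold change was 0.0784. PIN2, the carrier of root epidermis and lateral root cap, had 29.1 and 26.7 CPM under the wild type label and 13.7 and 10.9 CPM under the mutant label (log2 fold change -1.18 ± 0.09 SE; edgeR adjusted p = 3.17e-05). PIN7 had 434 and 435 against 611 and 617 CPM (0.50 ± 0.04 SE; edgeR adjusted p = 3.97e-05). The groups were apart for both, as they were for 54.7% of all genes tested, and both calls held in 9 of 9 alternatives. PIN4 had 132 and 116 against 149 and 146 CPM (log2 fold change 0.24 ± 0.06 SE; edgeR adjusted p = 0.0253), which leaving out wild type 2 removed (0.15; adjusted p = 0.199). Per length, the summed RPKM of the 8 PIN genes was 452.3 and 429.8 against 512 and 516, while that of the 7 kinase genes was 139 and 141 against 136 and 140. The summed PIN level was apart between the labels and the summed kinase level was not. For the PIN sum the exact permutation p was 0.333, the smallest possible with 2 libraries against 2. PIN7 alone had 131.8 and 132 against 185.4 and 187.4 RPKM. The kinase sum includes the 3 D6PK genes, with 100.5 and 100.4 against 99.2 and 101 RPKM, whose counts are uncertain.

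**Figure D5:**
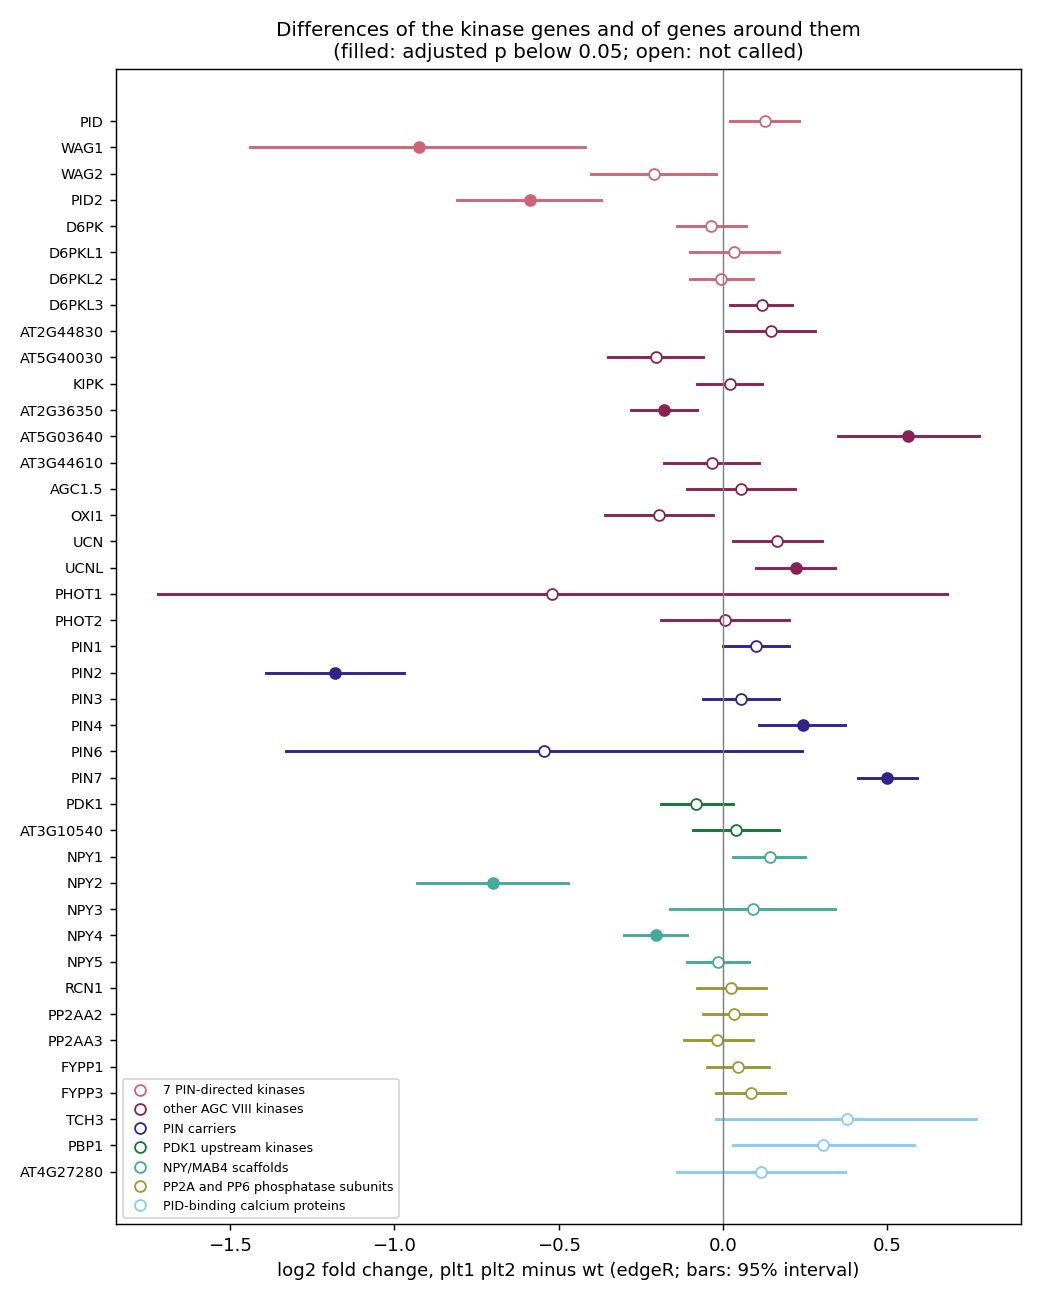
Log2 fold changes (mutant label minus wild type) with 95% intervals from edgeR for the 7 kinase genes, the other tested AGC VIII kinase genes and genes of their substrates and partners; filled points were called. Of the called genes, PID2, WAG1, AT2G36350, PIN2, NPY2 and NPY4 lie left of 0, and AT5G03640, UCNL, PIN4 and PIN7 lie right of 0. The phosphatase subunits lie within 0.1 of 0.

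Genes that act with or against the kinases were examined from lists of known partners. NPY proteins are scaffolds that act with AGC kinases in organ formation and in holding PIN proteins in place. Of 5 NPY genes 2 were called lower and 0 higher, beside 5.86% lower and 4.63% higher of all genes tested. DESeq2 also called 2 lower and 0 higher, beside 4.58% lower and 3.32% higher of the genes to which it gave an adjusted p. At an unadjusted edgeR p below 0.05, 2 were lower and 1 (NPY1) was higher, beside 13.2% lower and 11.4% higher of all genes tested. The median log2 fold change of the 5 was -0.0158. NPY2 had 15.8 and 13.02 CPM under the wild type label and 9.15 and 8.57 CPM under the mutant label, -0.70 ± 0.10 (SE) on the log2 scale (edgeR adjusted p = 0.00161), whose call held in 9 of 9 alternatives; it overlaps a gene on the other strand. NPY4 fell by 0.20 on the log2 scale, from 95.5 and 98.97 to 83.6 and 85.2 CPM (edgeR adjusted p = 0.0149), and leaving out wild type 2 removed the call (0.121). NPY1, also named ENHANCER OF PINOID, was not called (0.14; edgeR adjusted p = 0.0972).

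Neither PDK1, which phosphorylates and activates AGC kinases, nor AT3G10540 was called (log2 fold changes -0.08 and 0.04; edgeR adjusted p = 0.357 and 0.735). PP2A and PP6 phosphatases remove the phosphates that PID adds to PIN proteins. Of the 5 subunit genes tested 0 were called, beside 10.5% of all genes tested, with log2 fold changes from -0.02 to 0.08. Likewise 0 had an unadjusted edgeR p below 0.05, and DESeq2 called 0. FYPP3 (0.08) and FYPP1 (0.04) had the smallest p of these 5 (edgeR adjusted p = 0.320 and 0.571). The calcium-binding proteins TCH3 and PBP1 bind PID. TCH3 had 5.22 and 3.395 CPM under the wild type label and 5.57 and 5.62 under the mutant label and missed the threshold (edgeR adjusted p = 0.225) unless wild type 1 was left out (0.0364). PBP1 (0.31; edgeR adjusted p = 0.156) and AT4G27280 (0.12; 0.598) were not called, nor were they in any alternative. PDK1, AT3G10540, TCH3 and PBP1 overlap genes on the opposite strand.

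Root cap, phloem and epidermis markers had lower levels under the mutant label, as PID2 and WAG1 did. All 4 root cap markers (FEZ, SMB, BRN1 and BRN2) were called lower, where 5.86% of all genes tested were called lower and 4.63% higher. Their summed level was 57.6 to 62.4 CPM under the wild type label and 26.5 to 37.5 CPM under the mutant label. Most of that sum was BRN1, with 46.19 and 43.46 CPM under the wild type label and 18.75 and 29.67 CPM under the mutant label. Of 4 phloem markers 3 were called lower (SEOR1, SEOR2 and SUC2). APL was lower but not called (log2 fold change -0.97, edgeR adjusted p = 0.0604). The 4 summed to 8.11 to 9.34 CPM under the wild type label, against 4.62 to 4.73 CPM under the mutant label. All 3 epidermis markers (ATML1, PDF2 and PDF1) were called lower, with summed levels of 996 to 1059 against 789 to 850 CPM. Most of this sum was PDF1, with 880.1 and 816.2 against 702.6 and 655.5 CPM. No marker was at 0 in any library. Callus markers went both ways: of 5, WOX5 (0.19 on the log2 scale), LBD16 (0.28) and LBD18 (0.21) were called higher, SCR (-0.37) was called lower and LBD29 (-0.26; edgeR adjusted p = 0.168) was not called. The SCR call held in 9 of 9 alternatives, the LBD16 call in 7 (not without wild type 1 or wild type 2), the WOX5 call in 6 (not with a replicate block or without wild type 1 or mutant 1) and the LBD18 call in 6 (not without wild type 1, wild type 2 or mutant 1). Of the root cap, phloem and epidermis calls, FEZ, SEOR2 and PDF2 held in 9 of 9 alternatives. The SMB call ended without wild type 1, the BRN2 call without wild type 1 or wild type 2, and the BRN1 call by DESeq2. The SEOR1 call ended without wild type 1 or wild type 2, the PDF1 call without wild type 1 and the ATML1 call without wild type 2, and the SUC2 call held in 4 of 9. In callus RNA, fewer cells of a type and less RNA per cell cannot be told apart, and the part of cell composition in the levels of PID2 and WAG1 was not tested.

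The genes whose profiles over the 4 libraries lay nearest to those of the called kinases were found by the root-mean-square distance of centred log2 CPM among 16968 genes. For PID2 they were GATA7, a GATA-type transcription factor gene (distance 0.015), AT1G15830 (0.025) and AT1G13970 (0.035). For WAG1 they were the nicotianamine synthase gene NAS2 (0.029), BT1 (0.034) and AT4G24110 (0.043). GATA7 had 9.00 and 10.2 CPM under the wild type label and 5.82 and 6.74 CPM under the mutant label, and NAS2 had 34.8 and 33.6 against 20.1 and 16.2 CPM. With 4 libraries, a small distance describes like values only.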

How the data were processed

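The authors deposited whole-number read counts for each gene, a column for each library, not normalized. The tools STAR 2.7.2b, Trim Galore 0.5.0 and DESeq2 and the TAIR10 build are named in the submitters' processing notes; the counting tool, annotation and use of strand are not given in the sources used here. Of 23922 loci, 23755 matched the RefSeq annotation of TAIR10.1, which gave names, exon lengths, coordinates and sequences.

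Counts were tested with edgeR 4.0.16 (R 4.3.3): filterByExpr, TMM scaling and the quasi-likelihood F test (glmQLFit, glmQLFTest) of genotype alone, with Benjamini-Hochberg adjustment across the tested genes (threshold 0.05). The test was also run on counts simulated from the means and dispersions of these libraries. Such a run cannot show whether the spread between the libraries is only technical. The SE is the log2 fold change divided by the square root of F. CPM and RPKM were computed from the counts with TMM-scaled library sizes. Alternatives were RLE scaling, no filter on low counts, a mean of 50 or more reads, a replicate block, DESeq2 1.42.0 on all loci, and each library left out.

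The members and lists were chosen with earlier results of these data known. Named were all members; of each list of more than 3 genes the called members of largest change (up to 4) or, with none, the 2 of smallest p; all genes of shorter lists; UCN and UCNL; and the 3 genes nearest in profile to each called member, with a mean of 1 CPM or more. D6PKL3, NPY1 and motif CATGTG were added after their values or sequences were seen.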

Additional observations from a re-analysis of the deposited data

How the results depend on the processing

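Of the 7 kinase genes, 2 were called as reported, and between 1 and 2 with each library left out in turn; DESeq2 called 1. PID2 was called in each of these, and WAG1 was the call that ended; the fits without a library have fewer libraries, and the cause of the DESeq2 difference was not tested. Over all genes the count of 2027 ranged from 1068 (without wild type 2) to 3026 (without mutant 1) with a library left out. RLE scaling gave 2078, no filter 2489, the stricter filter 1944 and DESeq2 1597. Fits without 1 library assume that the lone library of a label varies like the others. With a replicate block 1909 genes and 2 kinase genes were called (PID2, log2 fold change -0.585; WAG1, -0.934); same-numbered libraries did not deviate together (correlation over genes -0.0896) and the numbers are not known to pair them. Among values near 0, the sign turned without wild type 1 for D6PKL2 (-0.0151 to 0.00064 with a library left out), AT3G10540 (-0.00488 to 0.0843) and AT4G27280 (-0.0098 to 0.251), and without mutant 2 for D6PKL1 (-0.0535 to 0.118). RLE scaling shifted the median of all genes by 0.00126 on the log2 scale. With 46 to 106 reads per library, WAG1 was the gene of the 7 most limited by depth.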
